A study of Mus musculus with 24 samples.

Results

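The shift from an early to a late lipopolysaccharide (LPS) response was described in Irg1-/- bone marrow-derived macrophages, by comparing 3 cultures held in LPS for 24 h with 3 cultures that received LPS for 3 h. These 6 libraries were chosen from the 24 of the series by genotype and treatment label alone, and every one of the 22165 genes of the count table was considered, of which 11878 passed the filter on low counts. The macrophages were grown for 7 days with 20 ng/ml M-CSF from the marrow of C57BL/6N mice aged 8 to 20 weeks, and the Irg1-/- mice lack the gene in the whole body. LPS was used at 100 ng/ml throughout. LPS 24h cells stayed in LPS for 24 h and were then harvested. LPS 3h cells (labelled Mock/3h_LPS) spent the same 24 h without LPS, were given fresh medium, rested for 1 h and were then stimulated for 3 h, so the groups also differ in the medium change and in total culture time. Unstim. Irg1-/- cells and the matching WT C57BL/6N groups, each with 3 cultures, are used only beside these values. Each group holds 3 independent cultures, and the number of mice behind them is not given in the sources used here.

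Irg1, now named Acod1, encodes the mitochondrial enzyme that turns cis-aconitate into itaconate, a metabolite that accumulates in macrophages hours after LPS. LPS is sensed by TLR4 with CD14 and MD-2, and the adaptors MyD88 and TRIF pass the signal to the transcription factors NF-kappaB, AP-1 and the interferon-regulatory factors. A first wave of cytokine, chemokine and inhibitor genes follows within hours, interferon-beta made in that wave drives a second set of genes, and the inhibitors then limit the response. With continued LPS, macrophages shut off many inflammatory genes while keeping or gaining others with metabolic, antimicrobial and repair roles. LPS tolerance names the weaker response to a second LPS stimulus, which neither compared group received.

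Levels are given as CPM, the counts scaled to a common library total after TMM normalization. Reads came from the 3' ends of transcripts and were not divided by length. Log2 fold changes are LPS 24h over LPS 3h and are given ± SE. A gene was called where edgeR's quasi-likelihood test gave a Benjamini-Hochberg adjusted p under 0.05 over the 11878 genes, with no minimum fold. In the order of cultures 1, 2 and 3, the targeted gene Acod1 (chr14:103046977-103056573, plus strand in GRCm38) stood at 26.4, 7.94 and 1.58 CPM in Irg1-/- LPS 3h cells and at 11.5, 8.202 and 6.54 CPM in Irg1-/- LPS 24h cells. WT cells held 22837, 28063 and 15643 CPM at LPS 3h and 3794, 4015 and 5799 CPM at LPS 24h. Every Irg1-/- library was thus far below every WT library with LPS, and within the knockout the low values of both times overlapped (log2 fold change -0.49 ± 0.47, adjusted p = 0.439). Which part of the gene was removed is not stated in the sources used here, so it is unknown whether these 3' reads fall inside it.

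Gene totals were 12224652 to 20430359 counts in the LPS 24h libraries and 8532851 to 13924749 in the LPS 3h libraries, and TMM factors were 1.15 to 1.17 against 0.67 to 0.73. Replicate libraries of one group correlated at r = 0.960 to 0.982 across genes, which are not independent replicates. Mitochondrial genes took 1.81% to 2.57% of counts at LPS 24h and 1.55% to 2.08% at LPS 3h. The macrophage genes Lyz2 and Csf1r were present at both times. Lyz2 was at 4190.2, 3284 and 2974 CPM and then 3025, 4774 and 2706 CPM, and Csf1r at 350.1, 396 and 332 CPM and then 358, 443 and 244 CPM. Other macrophage genes moved. In a list of 16 such genes, 5 rose and 3 fell, beside 18.2% and 16.9% of all genes. The labels carry a prefix, MB_1 to MB_4, whose meaning they do not give. All 3 Irg1-/- LPS 24h libraries are MB_1, while the LPS 3h libraries are MB_2 (culture 1) and MB_3 (cultures 2 and 3), so prefix and treatment cannot be told apart within these 6 libraries. A fit with the prefix as a term, made possible by the other groups, is given beside the results as the prefix fit. MB_3 occurs in no other group, so in this fit the Irg1-/- LPS 3h level rests on culture 1 alone. A call kept or lost there is therefore no check across the 3 cultures.

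A large share of the tested genes moved between 3 h and 24 h. Of 11878 genes, 2159 rose (18.2%) and 2003 fell (16.9%), 35.0% in all. With a log2 fold change of at least 2, 839 genes rose and 938 fell, and with at least 3 it was 335 and 493. The median log2 fold change over all genes was 0.15, or 0.05 with DESeq2 size factors, a shift of 0.11. The genes that fell were the more abundant ones. Their mean level in LPS 3h cells had a median of 89.6 CPM, and 951 of them reached 100 CPM there, whereas the genes that rose had a median of 18.9 CPM in LPS 24h cells, with 221 at 100 CPM or more. The libraries of both groups did not overlap for 2100 of the genes that rose and 1919 of those that fell, while over all tested genes such a gap was seen upward in 28.8% and downward in 22.9%. With the prefix fit, 674 genes were called higher (5.67%) and 1097 lower (9.24%). Of the genes called without it, 2152 of 2159 and 1987 of 2003 kept their sign, 616 (28.5%) and 1069 (53.4%) kept their call, and the median SE of a log2 fold change grew from 0.42 to 0.65.

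**Figure D1:**
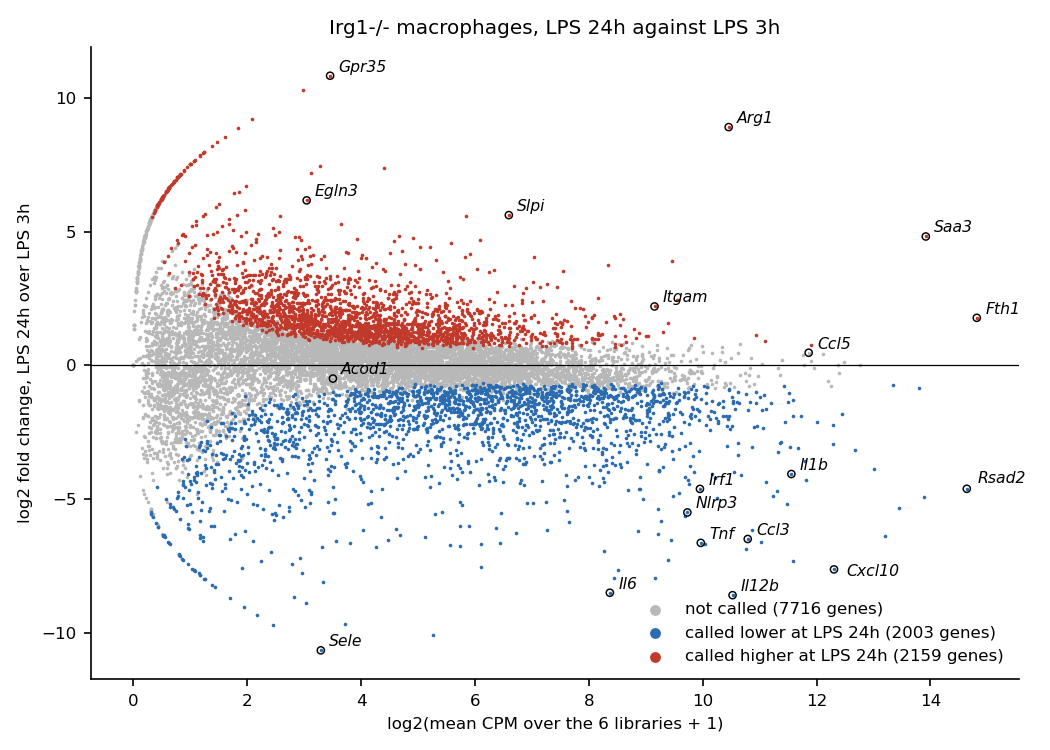
Each point is 1 of the 11878 tested genes; the x axis is the log2 of the mean CPM over the 6 Irg1-/- libraries plus 1 and the y axis the log2 fold change, LPS 24h over LPS 3h. Genes called lower (blue, 2003) reach higher levels than genes called higher (red, 2159), and Arg1, Saa3 and Fth1 are among the abundant genes that rose.

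The most abundant transcripts changed identity between the times. At LPS 3h the list was led by Rsad2, which encodes the antiviral enzyme viperin, at 48999 ± 7227 CPM (mean ± SD, n = 3). Tnfaip2 followed at 29163 ± 9195 CPM and the chemokine gene Cxcl2 stood at 18557 ± 5703 CPM. At LPS 24h the list was led by Fth1, the ferritin heavy chain that stores iron, at 44617 ± 5464 CPM, and by the acute-phase gene Saa3 at 29901 ± 7928 CPM. Rsad2, Tnfaip2 and Cxcl2 then stood at 2005, 964 and 226 CPM. Cybb, the NADPH oxidase subunit, and the actin gene Actb were in the first 8 at both times, although both fell, by 0.71 and 0.86 on the log2 scale.

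Compared with Irg1-/- Unstim. cells, where 868 of all tested genes were higher at LPS 24h (7.31%) and 758 lower (6.38%, 13.7% in either direction), the 2003 genes that fell comprised 294 still above Unstim. (14.7%), 409 below it (20.4%) and 1300 (64.9%) not called either way. Among the 2159 genes that rose, 257 (11.9%) ended above Unstim., 61 ended below it and 1841 (85.3%) were not called against it. Both comparisons share the LPS 24h libraries, so the counts are given side by side only.

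The extremes of the fall were genes with few or no counts left at 24 h. Where all 3 libraries of a group held at most 3 counts, the fold is given as a lower bound set by 3 counts per library. Il23a, the p19 subunit of IL-23, went from 86.1, 83.2 and 55.1 CPM to 0.0676, 0.1402 and 0 CPM and was at least 415-fold lower. F3, which encodes tissue factor, the trigger of coagulation, was at least 135-fold lower, and the adhesion molecule gene Sele at least 97.7-fold lower. The same bound was 79.1-fold for the nuclear receptor gene Nr4a3, 49.9-fold for the Myc family member Mycl, 31.8-fold for the cytokine gene Tslp and 18.8-fold for the alarmin gene Il33. Bend7, Nptx1 and Cacnb2 were lower by at least 67.5, 39.1 and 24.8 fold. All of these genes were under 100 CPM at LPS 3h, and Il33 was not called in the prefix fit (adjusted p = 0.116).

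The extremes of the rise lay lower still, apart from Arg1. Gpr35, a G protein-coupled receptor of macrophages, had 0 counts in each LPS 3h library and 22.2, 16.97 and 20.7 CPM at LPS 24h, at least 45.6-fold higher. Sirpb1a and Sirpb1b, paired activating receptors whose near-identical sequences can share reads, were higher by at least 31.7 and 14.8 fold. Fam78a and the kinase gene Wnk2 were higher by at least 11.7 and 9.34 fold. Zfp3, Rab42, Mgarp, Tns4 and Swsap1 reached 1.91 to 5.26, 1.62 to 3.37, 1.66 to 3.58, 1.96 to 3.79 and 1.57 to 3.37 CPM. Gm20605 rested on culture 2, with 0.338, 8.904 and 0.425 CPM in the 3 cultures, and was not called without it (adjusted p = 0.179) or without any single LPS 3h library. In the prefix fit the calls of Zfp3, Mgarp, Tns4, Swsap1 and Gm20605 were lost, and those of Gpr35, Sirpb1a, Sirpb1b, Fam78a, Wnk2, Rab42 and Arg1 held.

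Cytokine genes fell almost as a whole list. Of 22 tested, 19 fell and 1 rose, beside 16.9% and 18.2% of all genes, and the median log2 fold change was -4.65. Summed over the list, LPS 3h libraries held 15318 to 23400 CPM, LPS 24h libraries 995 to 1190 CPM and Unstim. libraries 233 to 269 CPM. In the prefix fit 15 were called lower and none higher.

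Il12b, the p40 subunit shared by IL-12 and IL-23, was at 3053, 3116 and 2637 CPM in LPS 3h cells and at 7.23, 6.52 and 9.005 CPM in LPS 24h cells (log2 fold change -8.59 ± 0.56, adjusted p = 4.63e-13). Il6, a cytokine of fever and the acute-phase response, was at 1251, 279.6 and 441 CPM and then at 1.01, 1.47 and 2.803 CPM (log2 fold change -8.50 ± 0.67, adjusted p = 3.35e-11). Every early library was far above every late one for both genes, although Il6 was uneven at 3 h, with culture 1 well above the others. Tnf, the cytokine that drives much of the early response, was at 1939, 2239 and 1758 CPM and then at 23.6, 23.1 and 13.1 CPM (log2 fold change -6.63 ± 0.43, adjusted p = 4.63e-13). Il10, the anti-inflammatory member, went from 84.3, 75.9 and 84.6 CPM to 2.84, 1.26 and 1.44 CPM (log2 fold change -5.47 ± 0.55, adjusted p = 3.89e-09). The groups did not overlap for any of these 4 genes, and all 4 remained above the Unstim. level at 24 h by the test against those cells.

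Il1b, which encodes pro-IL-1beta, the substrate of caspase-1, was at 6745, 6156 and 4152 CPM at LPS 3h and at 299.7, 399 and 324 CPM at LPS 24h (log2 fold change -4.06 ± 0.34, adjusted p = 8.31e-11). Unstim. cells held 12.8, 6.97 and 10.3 CPM, so the late level was both far below the early one and above the resting one (log2 fold change over Unstim. 5.08 ± 0.36, adjusted p = 5.6e-12). Its relative Il1a was at 6038, 2555 and 2460.4 CPM and then at 77.4, 42.6 and 34.6 CPM (log2 fold change -6.16 ± 0.45, adjusted p = 6.48e-12). Il27 and Tnfsf9, a T cell co-stimulator, fell by 7.96 and 5.43 on the log2 scale. Ifnb1, the interferon that starts the second wave, was at 20.5, 10.004 and 8.97 CPM in LPS 3h cells and detectable in 1 of the 3 LPS 24h libraries (0.2705, 0 and 0 CPM, log2 fold change -7.18 ± 1.16, adjusted p = 2.03e-05).

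Il18, which like Il1b is cleaved by caspase-1, fell less, from 148, 112 and 75.3 CPM to 25.9, 50.8 and 27.7 CPM, and was not called in the prefix fit (log2 fold change -1.69 ± 0.40, adjusted p = 0.00133; adjusted p = 0.0704 with the prefix). Il1rn, the IL-1 receptor antagonist, fell from 1014, 875 and 656 CPM to 532, 355 and 371 CPM and was not called in the prefix fit or without 1 library (log2 fold change -1.02 ± 0.33, adjusted p = 0.0161; adjusted p = 0.107 with the prefix and up to 0.053 without 1 library). Vegfa, the angiogenic factor, was the one member called higher (23.3, 19.8 and 32.01 CPM, then 41.3, 44.9 and 74.6 CPM, log2 fold change 1.10 ± 0.33, adjusted p = 0.0104), and the call was lost in the prefix fit (adjusted p = 0.182) and when any 1 of 3 single libraries was left out (adjusted p up to 0.122). Ebi3, the partner chain of Il27, was not called (-0.13 ± 0.39).

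**Figure D2:**
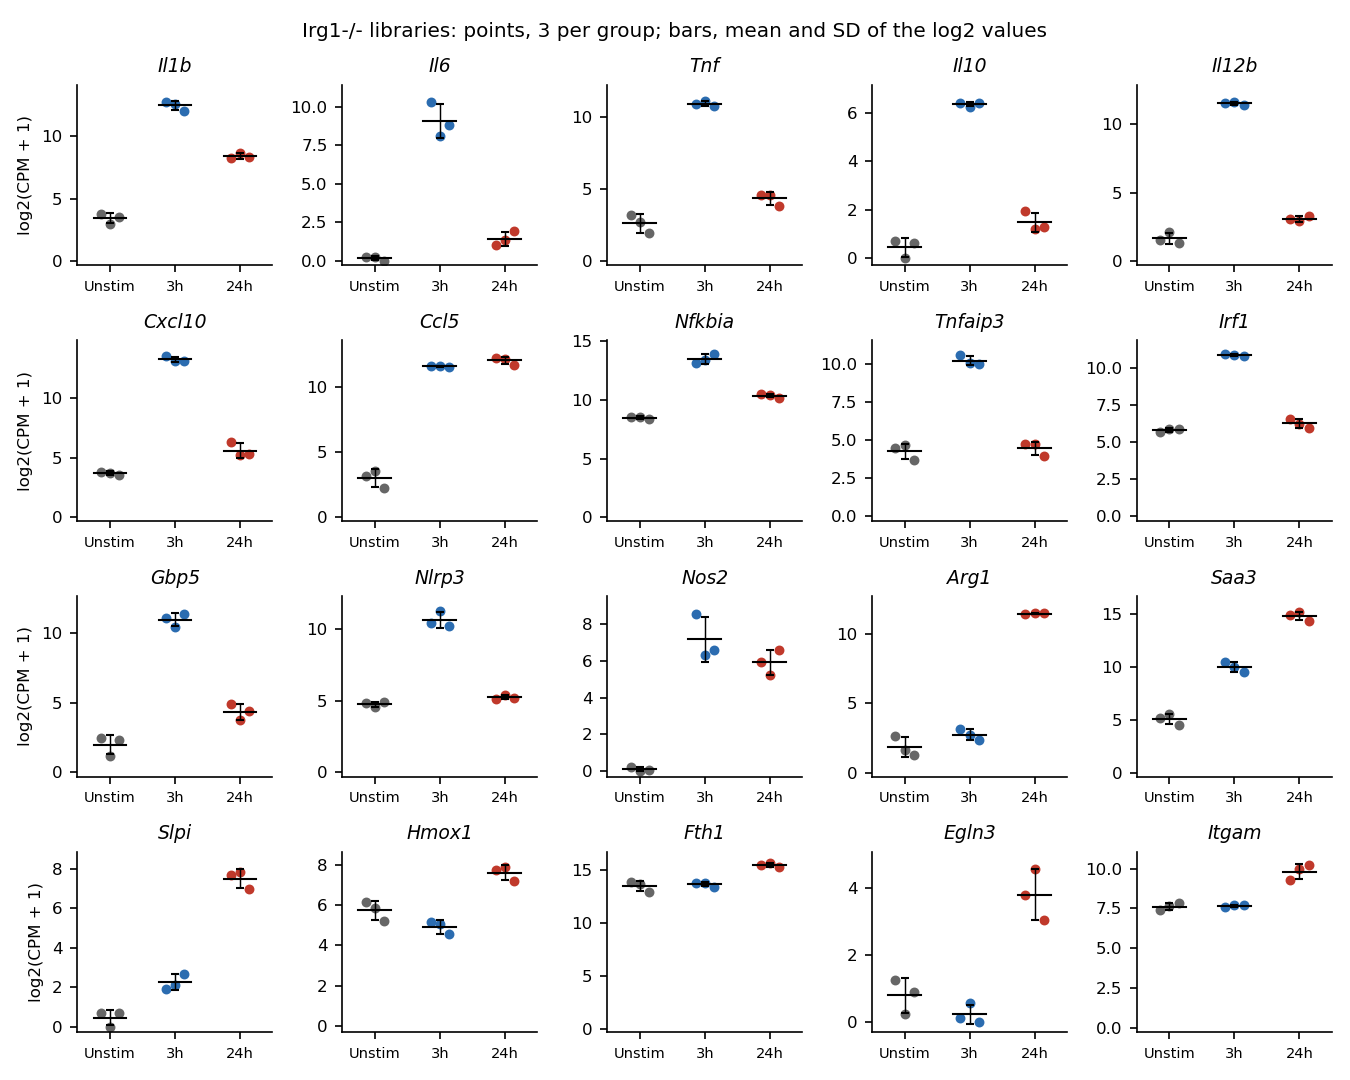
Each panel plots log2(CPM + 1) of 1 gene in the 9 Irg1-/- libraries named, 3 each of Unstim. (grey), LPS 3h (blue) and LPS 24h (red), with the mean and SD of the log2 values. Il1b, Il6, Tnf, Il10, Il12b, Cxcl10, Nfkbia, Tnfaip3, Irf1, Gbp5 and Nlrp3 peak at 3 h, Ccl5 stays high, Nos2 overlaps between the times, and Arg1, Saa3, Slpi, Hmox1, Fth1, Egln3 and Itgam are higher at 24 h than at 3 h.

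Chemokines, which recruit leukocytes, fell with the cytokines but with an exception. Of 18 genes 15 fell and none rose, beside 16.9% and 18.2% of all genes, and the median log2 fold change was -3.63. Their sum was 40433 to 57406 CPM at LPS 3h, 4599 to 6357 CPM at LPS 24h and 657 to 1043 CPM in Unstim. cells. Cxcl10, a ligand of CXCR3 on T cells, was at 11898, 9234 and 9086 CPM and then at 79.3, 35.8 and 37.97 CPM (log2 fold change -7.63 ± 0.46, adjusted p = 1.28e-13). Cxcl11, a ligand of the same receptor, fell by 7.63 as well. The chemokine genes Ccl4 and Ccl3 went from 6974, 5962 and 5289 CPM and 3796, 3674 and 3037 CPM to 47.7, 35.4 and 31.9 CPM and 45.4, 40.3 and 31.3 CPM, and neither was called against Unstim. cells at 24 h. Cxcl2, which attracts neutrophils, fell from 25077, 16095 and 14498 CPM to 277, 217 and 184 CPM (log2 fold change -6.36 ± 0.37, adjusted p = 1.04e-13). The monocyte attractant Ccl2 fell less, from 932, 634 and 521 CPM to 153, 91.1 and 77.2 CPM (log2 fold change -2.70 ± 0.44, adjusted p = 1.28e-05).

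Ccl5, a chemokine for T cells and monocytes, was not called. It stood at 3243, 3101 and 2987 CPM in LPS 3h cells and at 4864, 4701 and 3420.3 CPM in LPS 24h cells (log2 fold change 0.48 ± 0.41, adjusted p = 0.38), against 8.104, 10.7 and 3.69 CPM in Unstim. cells. Its libraries at 24 h were all above those at 3 h, without passing the test, and at 24 h it was the 11th most abundant transcript of all. Cxcl16, a membrane-bound chemokine, was not called either (-0.45 on the log2 scale). Cxcl9 fell by 1.66 and kept 101 to 388 CPM at 24 h, with no call in the prefix fit (adjusted p = 0.0721).

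The upstream sequences of 5 genes are shown because they hold matches to motifs of NF-kappaB, AP-1 and interferon-activated factors, so they were picked for their matches and are not typical of the genes that fell. Of 67 named genes called lower with a RefSeq promoter, 45 held no match to any of the 3 motifs in the window of 250 bases before to 50 after the start, among them Il12b, Tnf, Il1b, Ptgs2, Ccl3, Ch25h and Cish. Of named genes called higher 24 of 39 held no match, and of those not called 33 of 48. Named genes on 1 chromosome were left out of these counts, so the 67 are not all that were called lower. The letters shown are the 250 bases before the annotated start in RefSeq, GRCm38.p6, written 5' to 3' on the gene's strand. Capitals mark matches on either strand to the kappaB motif, the AP-1 motif TGANTCA and the interferon-stimulated response element (ISRE) letters GAAANNGAAA. Cxcl10 (chr5:92348890-92349139, minus strand) holds kappaB matches that start 159, 104 and 103 bases before the start, of which the last pair overlap, an ISRE match 213 bases and an AP-1 match 74 bases before it. Il6 (chr5:30012864-30013113, plus strand) holds 1 kappaB match 44 bases before its start and 1 AP-1 match at the far end of the window. Tnfaip3 (chr10:19015411-19015660, minus strand) holds kappaB matches at 125 and 12 bases and an AP-1 match at 136 bases. Socs1 (chr16:10785537-10785786, minus strand) holds overlapping ISRE matches at 83 and 77 bases. Saa3 (chr7:46715677-46715926, minus strand), which rose, holds an ISRE match at 125 bases. A match is a description of letters and was not tested for binding.
Cxcl10: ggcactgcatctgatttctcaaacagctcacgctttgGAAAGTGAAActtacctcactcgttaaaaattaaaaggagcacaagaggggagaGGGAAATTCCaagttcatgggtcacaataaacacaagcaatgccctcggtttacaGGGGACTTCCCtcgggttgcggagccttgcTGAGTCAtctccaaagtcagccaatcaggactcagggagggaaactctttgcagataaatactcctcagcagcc
Il6: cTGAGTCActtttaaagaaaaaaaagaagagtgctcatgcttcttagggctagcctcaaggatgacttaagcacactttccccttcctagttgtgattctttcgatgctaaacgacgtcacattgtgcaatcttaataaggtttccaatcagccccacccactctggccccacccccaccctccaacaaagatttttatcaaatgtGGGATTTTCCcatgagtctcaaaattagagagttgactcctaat
Tnfaip3: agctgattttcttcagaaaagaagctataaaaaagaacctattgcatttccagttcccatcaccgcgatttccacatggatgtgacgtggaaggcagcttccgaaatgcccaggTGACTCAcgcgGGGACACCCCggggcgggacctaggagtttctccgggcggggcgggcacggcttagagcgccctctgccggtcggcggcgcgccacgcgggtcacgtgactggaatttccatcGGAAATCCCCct
Socs1: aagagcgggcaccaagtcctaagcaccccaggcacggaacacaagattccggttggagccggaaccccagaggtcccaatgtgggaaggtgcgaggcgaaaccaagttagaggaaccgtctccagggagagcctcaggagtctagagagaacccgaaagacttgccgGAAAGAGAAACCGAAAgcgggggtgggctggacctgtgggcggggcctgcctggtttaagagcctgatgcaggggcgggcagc
Saa3: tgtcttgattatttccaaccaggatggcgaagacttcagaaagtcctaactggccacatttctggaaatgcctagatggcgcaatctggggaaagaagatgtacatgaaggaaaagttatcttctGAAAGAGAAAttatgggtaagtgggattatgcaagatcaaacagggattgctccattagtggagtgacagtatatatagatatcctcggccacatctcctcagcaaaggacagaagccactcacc

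Over the genes with a RefSeq promoter, counted from 250 bases before to 50 bases after the start, the kappaB motif was found in 10.2% of 9360 tested genes, in 13.6% of the 1556 that fell and in 9.94% of the 1741 that rose. ISRE letters were found in 3.32%, 5.53% and 2.41% of the same sets, and AP-1 letters in 4.87%, 7.46% and 3.68%. The TATA box letters TATAAA, searched on the given strand only, were found in 4.40%, 7.78% and 3.39%. CCAAT letters, which can fall inside longer motifs, were found in 38.99%, 35.86% and 39.57%. Among the 705 genes that fell with a log2 fold change of at least 2, the shares were 16.7% for kappaB, 6.24% for ISRE, 9.22% for AP-1 and 10.2% for TATA. These shares describe short windows, were not tested, and cover the 78.8% of tested genes that matched a promoter.

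Genes of the NF-kappaB system fell almost throughout, whereas 16.9% of all genes fell and 18.2% rose. Of 16 genes for subunits, inhibitors and kinases 15 fell and none rose, with a median of -2.77, and the prefix fit gave the same count of 15. Tnfaip3, which encodes A20, a ubiquitin-editing brake on the pathway, was at 1501, 1086 and 1036 CPM at LPS 3h and 25.2, 25.2 and 14.4 CPM at LPS 24h (log2 fold change -5.80 ± 0.49, adjusted p = 9.38e-11). Unstim. cells held 20.9, 24.1 and 12.2 CPM, and the late level was not called against them. Nfkbia, which encodes the inhibitor IkappaB-alpha, fell from 8882, 10704 and 15610.0 CPM to 1412, 1321 and 1167 CPM (log2 fold change -3.17 ± 0.29, adjusted p = 4.93e-10) and stayed above the Unstim. level of 378, 377 and 321 CPM. The subunit genes Rel and Nfkb1 fell by 4.63 and 4.43, and Nfkbiz, a nuclear cofactor needed for secondary genes, by 3.97. Rela, the main activating subunit, fell least of those called, from 90.3, 98.5 and 74.4 CPM to 42.1, 39.7 and 20.9 CPM (log2 fold change -1.36 ± 0.34, adjusted p = 0.00248). Ikbke, a kinase of the interferon branch, was the member not called (-0.64 ± 0.30).

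Other feedback genes behaved alike in direction. Of 15 tested genes 13 fell and none rose, beside 16.9% and 18.2% of all genes, with a median of -2.63. Cish, a cytokine-induced SH2 protein, went from 133, 124 and 149 CPM to 0.473, 0.911 and 0.765 CPM (log2 fold change -7.53 ± 0.58, adjusted p = 1.43e-11). Socs1, which blocks interferon and cytokine receptor signalling, went from 241, 189 and 233 CPM to 10.1, 11.99 and 7.73 CPM (log2 fold change -4.47 ± 0.41, adjusted p = 5.65e-10), and Socs3, which blocks IL-6 receptor signalling, from 1085, 1578 and 978 CPM to 242, 195 and 150.3 CPM (log2 fold change -2.63 ± 0.39, adjusted p = 3.4e-06). Both kept a higher level than in Unstim. cells, in which Socs1 was under 1 CPM in every library. The MAP kinase phosphatase gene Dusp2 fell by 5.03, the ubiquitin ligase gene Peli1 by 4.08 and Zfp36, which destabilises cytokine mRNA, by 3.65. Irak3, an inhibitory kinase of the IRAK family linked to tolerance, was not called, at 293, 267 and 225 CPM and then 265, 228 and 706 CPM, with culture 3 high at 24 h (0.61 ± 0.38). Tollip was not called either.

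Immediate early and AP-1 genes answer within minutes of a stimulus. Of 22 such genes 13 fell and none rose, beside 16.9% and 18.2% of all genes, and the median was -2.13. Maff, a small Maf factor, was at 137, 199 and 174 CPM and then at 5.004, 4.21 and 2.08 CPM (log2 fold change -5.51 ± 0.41, adjusted p = 9.85e-12), and Klf6 and Junb fell by 3.10 and 2.99. Egr1 and Egr2 ended below Unstim., at 1.35, 0.771 and 0.934 CPM and 0.609, 0.841 and 0 CPM against 9.97, 8.86 and 4.44 CPM and 13.9, 6.79 and 7.23 CPM without LPS. Fos and Jun themselves were not called, at -0.57 ± 0.51 and 0.64 ± 0.30, and the 3 h libraries lay at 93.2, 36.8 and 21.99 CPM for Fos and 167, 105 and 161 CPM for Jun.

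In the receptor layer the list was split. Of 20 genes of the LPS receptor and its adaptors, 7 fell and 3 rose, with a median of -0.54. Over all genes 16.9% fell and 18.2% rose, so the 3 rises are a share near that of all genes. Tlr2, the receptor for bacterial lipopeptides, was at 482, 428 and 367 CPM at LPS 3h and at 24.3, 30.9 and 16.2 CPM at LPS 24h (log2 fold change -4.16 ± 0.38, adjusted p = 6.24e-10), next to 26.2, 16.8 and 16.5 CPM in Unstim. cells. Cd14, the LPS co-receptor, went from 895, 806 and 777 CPM to 105, 128 and 85.04 CPM (log2 fold change -2.96 ± 0.36, adjusted p = 1.04e-07), and the signalling kinase Irak2 from 147, 113 and 126 CPM to 20.9, 16.6 and 21.1 CPM (log2 fold change -2.72 ± 0.28, adjusted p = 5.67e-09). Those were the 3 members called lower in the prefix fit. The 3 that rose were Tlr9, a DNA sensor (23.7, 10.3 and 22.3 CPM, then 72.96, 66.95 and 65.3 CPM), the TRIF-branch adaptor Ticam2 and the kinase Irak4, at log2 fold changes of 1.86 ± 0.32, 1.27 ± 0.33 and 1.18 ± 0.33, and all were called in the prefix fit. Irak4 was not called without LPS 3h culture 1 (adjusted p = 0.0842). Tlr4 itself was not called and its libraries overlapped, at 11.2, 29.7 and 13.02 CPM and 18.3, 16.6 and 38.7 CPM (0.46 ± 0.37).

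Inflammasome genes did not move as a block. The inflammasome is the complex in which a sensor such as NLRP3 joins the adaptor ASC and caspase-1, which then cleaves IL-1beta and gasdermin D. Of 15 genes 3 fell and 4 rose, beside 16.9% and 18.2% of all genes, with a median of -0.26. These shares are near those of all genes, so the counts are no result about the list. Nlrp3 was at 1359, 2445 and 1177 CPM at LPS 3h and at 34.01, 41.01 and 35.3 CPM at LPS 24h (log2 fold change -5.50 ± 0.49, adjusted p = 3.4e-10), close to 26.96, 22.4 and 28.4 CPM in Unstim. cells. The groups were far apart in every library. The DNA sensor gene Aim2 fell by 3.15 and Casp4, the mouse sensor of intracellular LPS, by 2.43.

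The effector genes were not called. Pycard, which encodes ASC, was at 43.05, 38.7 and 42.4 CPM and then at 53.8, 74.1 and 60.2 CPM (log2 fold change 0.60 ± 0.27, adjusted p = 0.0883). Casp1 was at 470.0, 315 and 263 CPM and then at 269, 86.2 and 224 CPM (log2 fold change -0.85 ± 0.37, adjusted p = 0.0729). Gsdmd, the pore-forming gasdermin D gene, was at 45.003, 39.7 and 40.5 CPM and then at 39.5, 39.96 and 25.1 CPM (log2 fold change -0.26 ± 0.30, adjusted p = 0.518). Casp1 and Gsdmd overlapped between the times, and the Pycard libraries did not, being somewhat higher at 24 h. P2rx7, the ATP-gated channel that triggers NLRP3, rose from 5.97, 8.098 and 6.68 CPM to 29.1, 33.7 and 36.4 CPM (log2 fold change 2.26 ± 0.30, adjusted p = 6.35e-07), which was near the 44.9, 35.4 and 42.3 CPM of Unstim. cells. The other members that rose, Nlrp1b, Naip5 and Nlrc4, had log2 fold changes of 1.56, 1.20 and 0.89, none was called in the prefix fit, and each lost its call when some of the single libraries were left out.

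Interferon-stimulated genes fell in part and stayed well above the resting level. Of 31 antiviral genes 19 fell and 1 rose, beside 16.9% and 18.2% of all genes, with a median of -1.38. At 24 h 28 of the 31 were above Unstim., beside 7.31% of all genes. Their sum was 77701 to 106194 CPM at LPS 3h, 7486 to 10720 CPM at LPS 24h and 1231 to 1652 CPM in Unstim. cells. Rsad2 accounted for much of that sum, with 51522, 40848 and 54626 CPM and then 2415, 1491 and 2108 CPM (log2 fold change -4.61 ± 0.39, adjusted p = 1.28e-10). Cmpk2, its neighbour on chromosome 12, went from 9054, 3596 and 4096 CPM to 193, 88.1 and 183 CPM (log2 fold change -5.17 ± 0.40, adjusted p = 2.23e-11). Ifih1, the RNA sensor MDA5, fell by 4.87 and Irf1, a transcription factor of the early interferon response, by 4.62. Ifit1 fell from 10382, 12357 and 23787 CPM to 1486, 593 and 1114 CPM (log2 fold change -3.87 ± 0.43, adjusted p = 2.62e-08), although Ifit genes are alike in sequence and can share reads.

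Several members of the same list were not called. Stat2, a factor downstream of interferon receptors, was at 1176, 998 and 922 CPM and then at 594, 505 and 886 CPM (log2 fold change -0.64 ± 0.37, adjusted p = 0.183). Irf7, a factor of the later interferon wave, was not called either, at 239, 256 and 432 CPM and then 689, 577 and 408 CPM (0.85 ± 0.37). Bst2, which tethers virus particles to the membrane, was the one that rose, from 43.3, 29.7 and 23.2 CPM to 105, 102 and 69.4 CPM (log2 fold change 1.52 ± 0.34, adjusted p = 0.000672), with no call in the prefix fit (adjusted p = 0.119).

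Guanylate-binding proteins and immunity-related GTPases attack vacuoles of intracellular microbes. Of 12 such genes 9 fell and none rose, beside 16.9% and 18.2% of all genes, with a median of -3.07. They summed to 8163 to 10556 CPM at LPS 3h and 505 to 825 CPM at LPS 24h. Gbp5 went from 2166, 1388 and 2664 CPM to 28.8, 12.5 and 19.96 CPM (log2 fold change -6.66 ± 0.69, adjusted p = 6.51e-09), Iigp1 from 1440.4, 1381 and 2054 CPM to 103, 50.1 and 96.6 CPM and Gbp3 from 2067, 2036 and 2357 CPM to 167, 68.1 and 152 CPM. Irgm1 was uneven at 3 h (754, 111 and 17.1 CPM, then 5.14, 8.13 and 12.4 CPM, log2 fold change -5.09 ± 0.91, adjusted p = 4.98e-05) and stayed called when any single library was left out. These are families of similar genes, and reads may have been divided between members.

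Genes of antigen presentation fell or were not called in both classes. Of 13 MHC class I and peptide-processing genes 5 fell, none rose and the median was -0.37. Of 11 class II and co-stimulatory genes 8 fell, none rose and the median was -1.39, beside 16.9% lower over all genes. The difference between the lists was not tested. B2m, the light chain of class I, was at 4652, 3057 and 3031 CPM and then at 4707, 4382 and 3012 CPM, and H2-K1 at 757, 699 and 554 CPM and then at 1220.0, 1138 and 826 CPM; neither was called (0.17 ± 0.31 and 0.66 ± 0.30). Their transactivator gene Nlrc5 fell from 118, 124 and 121 CPM to 24.1, 21.4 and 20.9 CPM (log2 fold change -2.45 ± 0.30, adjusted p = 1.98e-07). On the class II side the co-stimulatory receptor gene Cd40 fell from 1298, 1244 and 921 CPM to 31.1, 28.4 and 25.1 CPM (log2 fold change -5.36 ± 0.43, adjusted p = 5.11e-11) and Cd86 from 64.9, 49.4 and 71.2 CPM to 7.57, 8.34 and 7.43 CPM (log2 fold change -2.99 ± 0.36, adjusted p = 9.67e-08). The class II chain H2-Eb1 fell from 24.1, 20.5 and 11.96 CPM to 4.46, 4.77 and 2.93 CPM and the transactivator Ciita from 4.94, 3.18 and 3.17 CPM to 0, 0.2804 and 0.127 CPM, both to below the Unstim. level. Cd274, which encodes PD-L1, fell by 1.36 and kept 222, 189 and 620.0 CPM in LPS 24h cells against 11.1, 13.6 and 13.01 CPM in Unstim. cells, and the call was lost without 1 library (adjusted p = 0.0667).

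Genes of arginine metabolism were split. Nitric oxide synthase and arginases compete for arginine. Of the 11 genes listed 5 fell and 2 rose, beside 16.9% and 18.2% of all genes, with a median of -0.13. The 2 that rose are a share near that of all genes. Arg1, which encodes arginase 1 (chr10:24915221-24927484, minus strand), was at 7.72, 5.399 and 4.05 CPM in LPS 3h cells and at 2729, 2839 and 2840.2 CPM in LPS 24h cells (log2 fold change 8.91 ± 0.65, adjusted p = 4.8e-12). The late libraries were close to each other and far above the early ones, which lay near the Unstim. libraries (5.299, 2.07 and 1.39 CPM). Arg1 was thus the 20th most abundant transcript at 24 h, and in the prefix fit its log2 fold change was 7.94 (adjusted p = 1.22e-06). Spr, an enzyme of tetrahydrobiopterin synthesis, rose from 2.78, 3.49 and 1.41 CPM to 12.2, 18.6 and 10.2 CPM (log2 fold change 2.39 ± 0.48, adjusted p = 0.000203).

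Nos2, the inducible nitric oxide synthase, was at 380.4, 79.6 and 97.8 CPM at LPS 3h and at 61.2, 37.3 and 96.9 CPM at LPS 24h (log2 fold change -1.51 ± 0.48, adjusted p = 0.0137), and Unstim. cells were near 0. The groups overlapped, as LPS 24h culture 3 lay above LPS 3h culture 2, and LPS 3h culture 1 stood far above the rest. Without LPS 3h culture 1 the log2 fold change was -0.51 (adjusted p = 0.40), and without LPS 24h culture 2 it was -1.29 (adjusted p = 0.0716), so the call depends on single libraries. The arginine transporter gene Slc7a2 fell from 2329, 2219 and 457 CPM to 116, 73.3 and 284 CPM (log2 fold change -3.40 ± 0.55, adjusted p = 1.3e-05), and Odc1 and Gch1, enzymes of polyamine and tetrahydrobiopterin synthesis, by 2.36 and 2.29.

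Secreted defence genes included several of the abundant late transcripts. Of 13 acute-phase, complement and defence genes 5 rose and 1 fell, beside 18.2% and 16.9% of all genes, and the median was -0.001. The list's sum went from 5707 to 7672 CPM at LPS 3h to 26026 to 44634 CPM at LPS 24h. Saa3, a serum amyloid A made by macrophages, was at 1409.9, 1009.9 and 749 CPM at LPS 3h and 30887, 37290.0 and 21526 CPM at LPS 24h (log2 fold change 4.82 ± 0.44, adjusted p = 5.01e-10), over 35.4, 48.1 and 23.2 CPM in Unstim. cells. Slpi, a secreted inhibitor of leukocyte proteases, went from 2.78, 3.33 and 5.45 CPM to 204, 232 and 126 CPM (log2 fold change 5.62 ± 0.64, adjusted p = 3.42e-08). Hp, which encodes the haemoglobin scavenger haptoglobin, went from 11.7, 5.72 and 13.9 CPM to 92.9, 117 and 85.7 CPM (log2 fold change 3.23 ± 0.52, adjusted p = 1.09e-05), and Lcn2, which binds bacterial siderophores, from 84.03, 96.5 and 75.6 CPM to 573, 455 and 428 CPM (log2 fold change 2.51 ± 0.34, adjusted p = 1.02e-06). The groups did not overlap for these 4 genes, and all 4 were called in the prefix fit. Cfb, complement factor B, was called on uneven values (0.721, 0.953 and 0 CPM, then 5.07, 0.2804 and 30.8 CPM) and was not called without LPS 24h culture 3 (adjusted p = 0.228). The complement genes C1qa, C1qb, C1qc and C3 were not called. The 1 member that fell, Ltf, is also a neutrophil marker.

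Genes of iron, haem and the NRF2 response were mixed. NRF2 is a transcription factor of antioxidant genes. Of 21 of its targets 6 rose and 2 fell, beside 18.2% and 16.9% of all genes, with a median of 0.39. Fth1 rose from 14234, 13824 and 10870.1 CPM to 44824, 49975 and 39052 CPM (log2 fold change 1.78 ± 0.30, adjusted p = 1.87e-05), and the list's sum, most of it Fth1, went from 17236 to 23354 CPM to 46104 to 60009 CPM. Hmox1, the haem-degrading haem oxygenase 1, rose from 35.3, 32.1 and 22.3 CPM to 213, 235 and 144 CPM (log2 fold change 2.72 ± 0.38, adjusted p = 1.58e-06), and Slc48a1, a haem transporter, from 95.4, 84.2 and 87.1 CPM to 465, 418 and 275 CPM (log2 fold change 2.12 ± 0.34, adjusted p = 1.38e-05). These 3 and the growth inhibitor gene Osgin1 were called in the prefix fit, while Ftl1 and G6pdx were not. The 2 that fell were Slc7a11, the cystine importer (985, 564 and 535 CPM, then 58.6, 48.4 and 53.9 CPM, log2 fold change -3.69 ± 0.34, adjusted p = 6.24e-10), and Txnrd1, thioredoxin reductase, by 2.07. Classical targets Nqo1, Gclc, Gclm and Gsr were not called, at log2 fold changes of 0.48, 0.39, -0.14 and 0.46.

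Glycolysis and HIF-1 genes were the list with the largest share of rises, whereas 18.2% of all genes rose and 16.9% fell. Against Unstim. cells, 7.31% of all genes were higher at LPS 24h. Of 20 genes 13 rose and 3 fell, with a median of 1.27, and 17 of the 20 were above Unstim. at 24 h; in the prefix fit 6 were called higher and 3 lower. Most enzymes of the pathway rose, with Gpi1 at 35.5, 28.7 and 38.7 CPM and then 153, 182 and 157 CPM (log2 fold change 2.26 ± 0.33, adjusted p = 2.33e-06) and Tpi1 at 100.0, 93.8 and 56.8 CPM and then 425, 401 and 293 CPM (log2 fold change 2.16 ± 0.31, adjusted p = 2.41e-06). Gapdh and Pkm rose, with log2 fold changes of 1.91 ± 0.36 and 1.74 ± 0.34, as did Ldha (145, 114 and 95.9 CPM, then 488, 476 and 277 CPM), and the lactate exporter Slc16a3 by 2.02. Gapdh and Ldha were not called in the prefix fit (adjusted p = 0.0825 and 0.0591). Gapdh and Pgk1 have many processed pseudogenes, whose reads could not be separated here.

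HIF-1 targets outside the pathway rose as well. Egln3, an oxygen-sensing prolyl hydroxylase, had at most 3 counts in each LPS 3h library and 12.9, 22.6 and 7.35 CPM at LPS 24h, at least 32.7-fold higher. Bnip3, a mitophagy receptor, went from 11.02, 10.6 and 10.9 CPM to 74.2, 60.1 and 52.6 CPM (log2 fold change 2.52 ± 0.29, adjusted p = 5.67e-08). Against this, Hif1a itself fell from 1042, 679 and 738 CPM to 346, 370.1 and 418 CPM (log2 fold change -1.12 ± 0.32, adjusted p = 0.00726), as did the first enzyme gene Hk2 (778, 707 and 929 CPM, then 284, 274 and 361 CPM, log2 fold change -1.39 ± 0.27, adjusted p = 0.000174) and Pfkp, by 2.32. Hk2 and Hif1a were still above Unstim. at 24 h. The glucose transporter gene Slc2a1 was not called (0.13 ± 0.32).

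TCA cycle genes surround the reaction removed in these cells. Of 21 genes 3 rose and none fell, with a median of 0.26, and the 3 that rose are a share near the 18.2% of all genes, so the count is no result about the list. Clybl, which takes part in breaking down itaconate-derived citramalyl-CoA, rose from 5.87, 14.8 and 7.56 CPM to 30.1, 32.95 and 20.2 CPM (log2 fold change 1.57 ± 0.46, adjusted p = 0.00798) and was called in the prefix fit, but not without LPS 3h culture 1 or 3 (adjusted p = 0.0704 and 0.0503). Sdhb and Mdh2 rose by 1.55 and 1.14 and were not called in the prefix fit, and Mdh2 lost its call when any 1 of 4 single libraries was left out (adjusted p up to 0.0639). Sdha, Sdhc, Ogdh and Cs were not called.

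**Figure D3:**
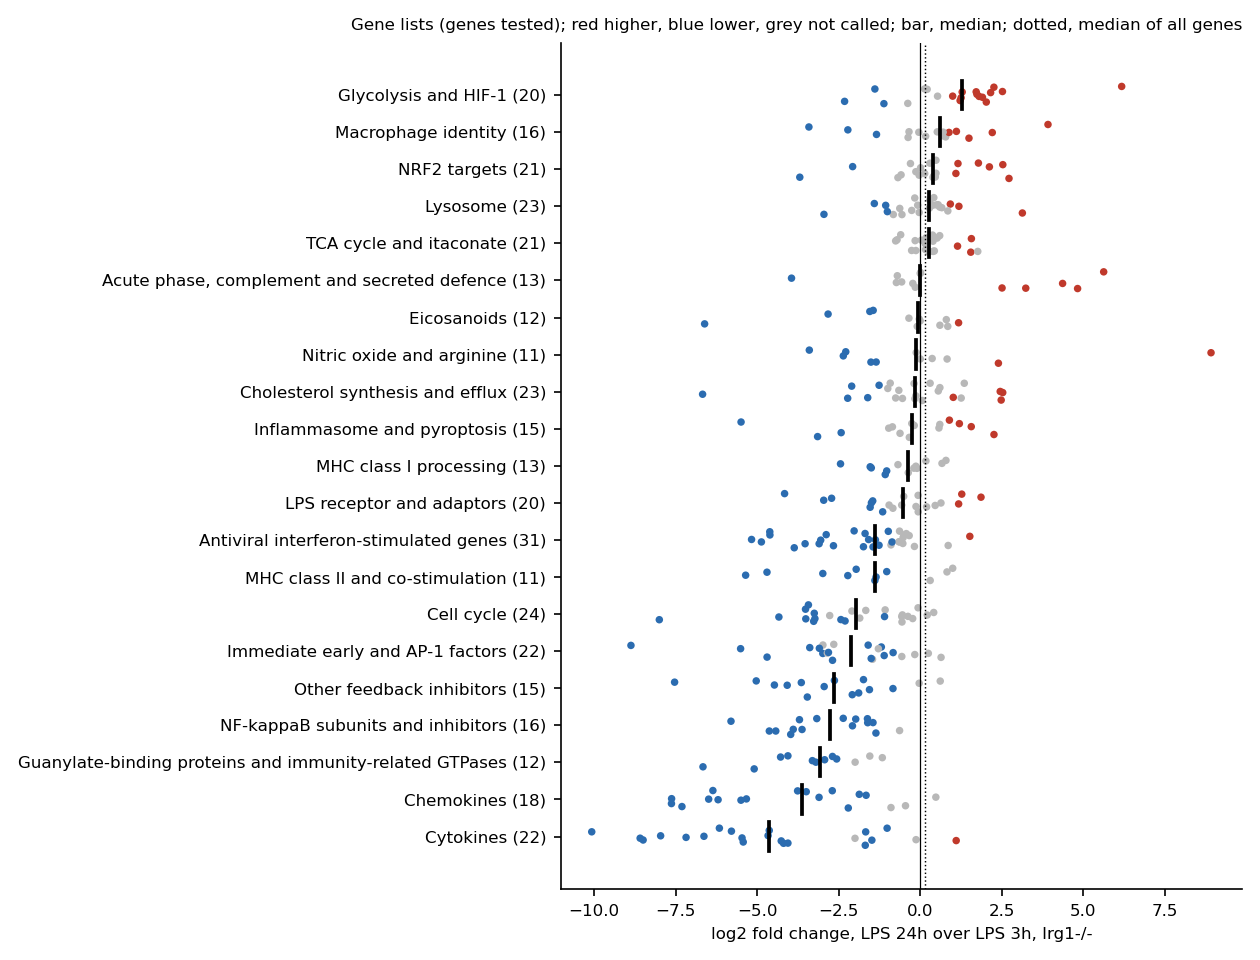
Each point is a tested gene of the list named at the left, with the number tested in brackets, at its log2 fold change, LPS 24h over LPS 3h, in Irg1-/- cells; red genes were called higher, blue lower and grey not called, and the black bar is the list's median. Cytokines (median -4.65) and chemokines (-3.63) lie farthest to the left, glycolysis and HIF-1 genes (1.27) farthest to the right, and the dotted line is the median of all tested genes (0.15).

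Lipid mediators and sterols had single genes that fell sharply. Ptgs2, the inducible cyclooxygenase COX-2, was at 5064, 3649 and 3630.4 CPM and then at 43.4, 60.6 and 22.2 CPM (log2 fold change -6.61 ± 0.51, adjusted p = 1.6e-11). Ptgs1, the constitutive COX-1, fell from 24.3, 22.5 and 21.8 CPM to 2.16, 4.63 and 2.89 CPM, below the 98.3, 59.6 and 57.97 CPM of Unstim. cells. Of 12 eicosanoid genes 4 fell and 1 rose, beside 16.9% and 18.2% of all genes, with a median of -0.06. Ptges, the prostaglandin E synthase that works with COX-2, was not called, at 47.1, 41.3 and 49.6 CPM and then 110.2, 73.7 and 55.98 CPM. Ch25h, which makes the oxysterol 25-hydroxycholesterol, went from 236, 80.5 and 86.01 CPM to 1.35, 2.03 and 0.637 CPM (log2 fold change -6.68 ± 0.73, adjusted p = 1.66e-08). Of 23 cholesterol genes 5 fell and 4 rose (median -0.17), near the 16.9% and 18.2% of all genes, none of the 4 being called in the prefix fit. The efflux transporter genes Abca1 and Abcg1 were not called, at -0.19 ± 0.30 and 0.06 ± 0.26.

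Of 24 cell division genes 11 fell and none rose, beside 16.9% lower and 18.2% higher over all genes, with a median of -1.98. At 24 h 11 were below Unstim., beside 6.38% of all genes. Mki67, the proliferation marker, was at 280.0, 239 and 307 CPM and then at 16.02, 5.61 and 19.2 CPM (log2 fold change -4.34 ± 0.59, adjusted p = 8.45e-07), against 9.82, 28.7 and 53.8 CPM in Unstim. cells. Top2a went from 54.9, 53.2 and 61.2 CPM to 6.96, 3.86 and 6.88 CPM (log2 fold change -3.25 ± 0.44, adjusted p = 9.48e-07) and ended below Unstim. (26.03, 40.3 and 83.5 CPM). Ccna2, a cyclin of S phase, held 0 counts in each LPS 24h library and in 1 LPS 3h library (2.78, 5.56 and 0 CPM), and was on average at least 15.4-fold lower. The helicase genes Mcm2, Mcm3, Mcm4 and Mcm7 and Cdk1 were not called.

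Macrophage genes went both ways. Of 16 genes 5 rose and 3 fell, beside 18.2% and 16.9% of all genes, with a median of 0.61. The 3 that fell are a share near that of all genes. Itgam, the integrin CD11b, rose from 189.7, 209.9 and 208 CPM to 625, 997 and 1182 CPM (log2 fold change 2.21 ± 0.42, adjusted p = 0.00011), above the 167, 199.6 and 224 CPM of Unstim. cells. Mrc1, the mannose receptor, fell from 564, 699.6 and 587 CPM to 48.8, 48.1 and 76.4 CPM (log2 fold change -3.42 ± 0.42, adjusted p = 1.55e-07), and Apoe and Trem2 fell by 2.22 and 1.34, all 3 to below Unstim. levels. Among 23 lysosome genes 4 fell and 3 rose (median 0.28), which are shares near the 16.9% and 18.2% of all genes and no result about the list. Single genes moved, such as Tfeb, the regulator of lysosome genes, from 1.54, 1.27 and 0.352 CPM to 8.99, 9.81 and 10.4 CPM (log2 fold change 3.13 ± 0.52, adjusted p = 1.73e-05), and Atp6v0d2, a proton pump subunit that fell by 2.95. The main cathepsin genes Ctsb, Ctsd and Ctss were not called.

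Markers of T and NK, B, dendritic, mast and erythroid cells were low, whereas those of neutrophils and fibroblasts stood higher. In part these markers moved with the treatment. Their called counts stand beside 16.9% lower and 18.2% higher over all genes. The defining T and NK genes Cd3e, Cd8a and Klrb1c were at 0 in all 9 Irg1-/- libraries named. Of 8 tested neutrophil genes 5 fell and none rose, with S100a9 at 281, 326 and 187 CPM and then 49.4, 60.2 and 41.2 CPM and Ngp at 46.7, 46.5 and 42.6 CPM and then 2.84, 3.37 and 1.15 CPM, and the list summed to 416 to 604 CPM at LPS 3h, 143 to 214 CPM at LPS 24h and 438 to 678 CPM in Unstim. cells. The defining neutrophil gene Ly6g was at 0 in 2 or 3 libraries of each group. Of 5 fibroblast genes 2 fell, and the sum was 292 to 434 CPM and then 166 to 192 CPM. T and NK genes summed to 4.61 to 7.56 CPM and then 0.14 to 1.01 CPM, of which Lck fell. Dendritic cell genes summed to 7.30 to 8.03 CPM and then 1.33 to 1.78 CPM, of which Siglech and Zbtb46 fell. In bulk samples fewer cells of a type and less RNA per cell cannot be told apart, and the part of these cells in the results above was not tested.

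The same shift was laid over gene classes chosen by the WT comparisons of the same fit. Early genes were those that WT cells raised at LPS 3h over Unstim. and lowered by LPS 24h, sustained genes those raised at 3 h and at 24 h without a called change between the times, and late genes those higher at LPS 24h than at both other times, each with a log2 fold change of at least 1. Over all tested genes 16.9% fell and 18.2% rose in Irg1-/- cells. Of 1012 early genes, 938 (92.7%) fell in Irg1-/- cells and none rose, with a median of -2.15. The median early gene kept 3.31% of its 3 h rise at 24 h (interquartile range -4.49% to 12.6%), and in WT cells, where the class was chosen, 4.98%. At 24 h 239 of the early genes were still above Unstim. and 66 were below it, beside 7.31% and 6.38% of all genes. The 66 are a share near that of all genes, so this count is no result about early genes. The 324 sustained genes were more divided, with 99 lower, 13 higher and 212 not called, a median of -0.57 and 54.2% of the rise kept at the median, beside 86.1% in WT cells. Of 286 late genes 196 (68.5%) rose, 1 fell (Dusp1) and 89 were not called, with a median of 1.59, and 172 were above Unstim. at 24 h. In the prefix fit 708 early and 32 sustained genes were called lower and 89 late genes higher. Because the classes were chosen on WT values, the WT shares are set by the choice and are given as a description.

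**Figure D4:**
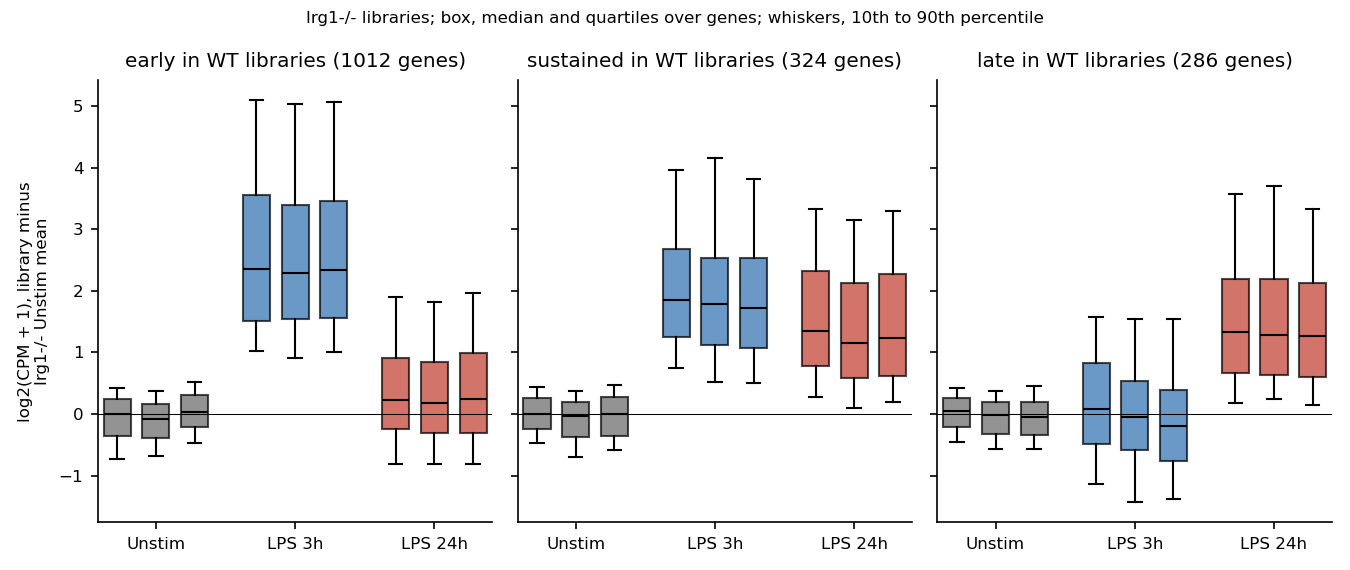
Boxes show, for each of the 9 Irg1-/- libraries named, the median and quartiles over genes of log2(CPM + 1) minus the mean of the Unstim. libraries, with whiskers from the 10th to the 90th percentile, for 1012 early, 324 sustained and 286 late genes chosen in WT libraries. Early genes return near 0 at LPS 24h, sustained genes stay raised, and late genes are near 0 at LPS 3h and raised at LPS 24h in each library.

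Genes that led these classes in WT cells could be followed in the knockout by the same rule. Among early leaders Ifi202b went from 15.4, 17.8 and 7.56 CPM to 0, 0 and 0.127 CPM and Unc80 from 5.36, 5.56 and 6.16 CPM to 0, 0 and 0.1699 CPM, and both were called lower, Unc80 not in the prefix fit (adjusted p = 0.0789). Among sustained leaders besides Ccl5 and Nos2, Pnp2 stood at 15.96, 14.9 and 7.74 CPM and then 4.395, 5.19 and 3.27 CPM (log2 fold change -1.59 ± 0.50, adjusted p = 0.0134), a call lost without LPS 24h culture 3 (adjusted p = 0.0533). U90926 stood at 33.2, 19.2 and 29.02 CPM and then 38.5, 45.9 and 32.5 CPM (log2 fold change 0.52 ± 0.44, adjusted p = 0.378). Among late leaders Rasgef1c rose (0, 0.635 and 0 CPM, then 4.53, 1.19 and 2.68 CPM, log2 fold change 3.74 ± 1.31, adjusted p = 0.0273), with no call in the prefix fit or without 4 of the single libraries. Apol10a, Filip1 and Cyp2j7 were not called, at 0, 0 and 0, 0.879, 1.19 and 2.51 and 0, 0 and 0.1699 CPM in LPS 24h cells. WT LPS 24h cells held 0, 1.52 and 39.2 CPM of Apol10a, 1.34, 2.86 and 1.43 CPM of Filip1 and 0, 0.983 and 26.2 CPM of Cyp2j7, so that the Apol10a and Cyp2j7 levels came mostly from culture 3, and the test of the genotype difference did not call any of them (adjusted p = 0.298, 0.399 and 1).

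The WT shift had 1994 genes higher (16.8%) and 1838 lower (15.5%), 32.3% in all, and no library is shared between the genotypes. Of the genes that rose in Irg1-/- cells 1347 (62.4%) rose in WT cells too, and of those that fell 1471 (73.4%) fell in WT cells, which makes 67.6% of the 1994 and 1471 of the 1838 WT calls. In all 2820 genes were called in both, 1342 in Irg1-/- cells alone and 1012 in WT cells alone. A call in one genotype alone does not show a difference, and when the difference of the shifts was tested for each gene, 0 of 11878 (0.0%) passed with edgeR (smallest adjusted p = 0.0726). An unadjusted p under 0.05 was found for 769 genes (6.47%). DESeq2's Wald test called 13 genes and edgeR without the filter on low counts 78, of which 77 were among the 11878 tested genes. The count of 0 thus depends on the setting.

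**Figure D5:**
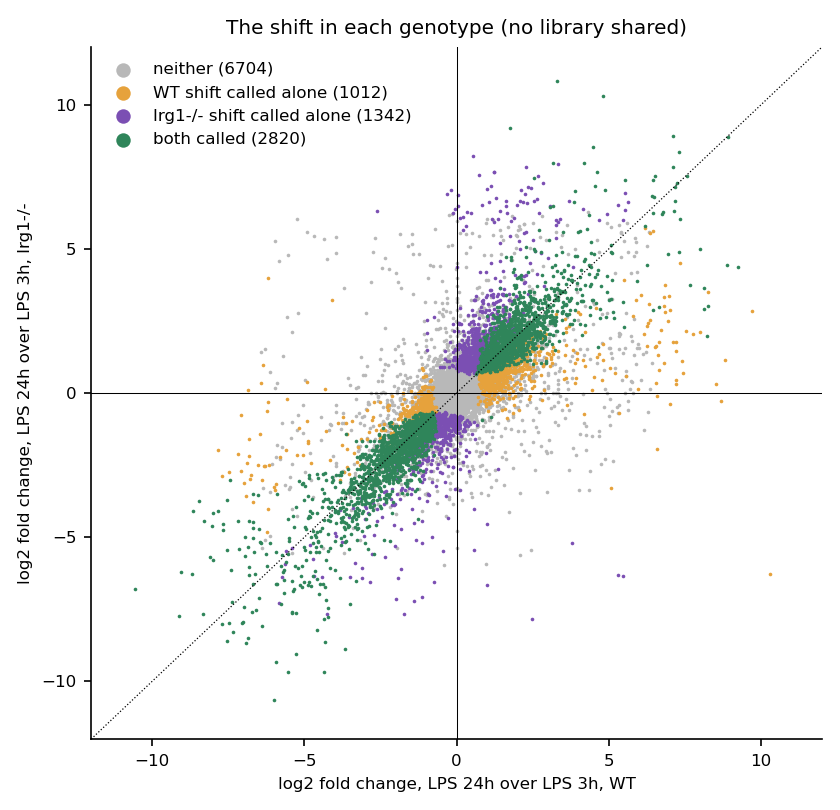
Each point is a tested gene at its log2 fold change, LPS 24h over LPS 3h, in WT cells (x axis) and Irg1-/- cells (y axis), with equality dotted; 2820 genes were called in both (green), 1342 in Irg1-/- alone (purple), 1012 in WT alone (orange) and 6704 in neither (grey). The cloud follows the dotted line, and no gene was called for the difference between the genotypes with edgeR after the filter on low counts.

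For the main members both shifts can be read side by side. The WT log2 fold change was -7.54 for Il12b, -6.84 for Il6, -5.93 for Tnf, -4.00 for Il1b and -5.93 for Nlrp3, beside -8.59, -8.50, -6.63, -4.06 and -5.50 in Irg1-/- cells. For genes that rose it was 7.12 for Arg1, 4.50 for Saa3, 3.61 for Hmox1 and 4.04 for Slpi, beside 8.91, 4.82, 2.72 and 5.62. Cxcl10 fell by 7.63 in Irg1-/- cells and by 5.27 in WT cells, a difference of -2.35 ± 0.49 that was not called (adjusted p = 0.178). The SE of such a difference had a median of 0.58 over all genes, which limits the size of difference that could be detected.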

How the data were processed

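The series measured gene expression by 3'-end sequencing of oligo-dT barcoded cDNA, pooled and amplified by PCR, with no molecular identifiers named, in 24 libraries of mouse bone marrow-derived macrophages. The authors aligned reads with STAR to mm10 and deposited raw counts per gene in 1 table; the counter, its annotation and its strand setting are not given in the sources used here, so overlapping and antisense genes could not be told apart. The 5 summary lines of the table were left out, and no column was unused.

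Counts of all 24 libraries in 8 groups were fitted with edgeR 4.0.16 in R 4.3.3 (filterByExpr, TMM, quasi-likelihood F-test, 16 residual degrees of freedom), the adjusted p being Benjamini-Hochberg over 11878 genes. The two-sided exact permutation test of 3 against 3 libraries cannot go below p = 0.1. Alternatives included DESeq2 1.42.0, other filters and scalings, the label prefix as a term and leaving out single libraries. Gene totals of 8532851 to 20430359 counts in the Irg1-/- LPS 3h and LPS 24h libraries limit the precision for low genes. The Irg1-/- Unstim. libraries held 4707752, 3927378 and 14766807 counts. Gene coordinates are those of GENCODE M21, promoters those of RefSeq.

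The comparison, the gene lists and the members were chosen with earlier results of these data known. Named genes were Acod1, a set of cytokine and inflammasome genes, up to 12 genes with the largest called changes in each direction (groups not overlapping, mean of at least 10 counts), in each list up to 4 called members per direction and up to 3 abundant members not called, and 4 leaders of each WT-chosen class; some genes under this rule are not reported here, and further list members were named after their values were seen. P-values rest on cultures described as independent, with 3 per group.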

Additional observations from a re-analysis of the deposited data

Results flagged for a closer look

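Among the 11878 tested genes, 22 had libraries that moved in opposite directions in the genotypes without overlap, and 2 of these were called in opposite directions. Dusp1, which encodes a phosphatase that switches off MAP kinases, was at 149.8, 152 and 143 CPM at LPS 3h and 115, 75.6 and 57.8 CPM at LPS 24h in Irg1-/- cells, and at 129.6, 104 and 92.998 CPM and 232, 258 and 222 CPM in WT cells. Its log2 fold change in Irg1-/- minus that in WT was -1.963 ± 0.44, and edgeR's test of this difference did not call it (adjusted p = 0.218). Igf2bp2, an RNA-binding protein gene, was at 94.8, 74.8 and 91.6 CPM and 49.4, 29.5 and 56.2 CPM in Irg1-/- cells and at 87.3, 96.8 and 109 CPM and 121, 141 and 257 CPM in WT cells. The same difference was -1.773 ± 0.42 (adjusted p = 0.286). The Irg1-/- call of both genes was lost in the prefix fit and without single libraries, and both were singled out after their values were seen.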

How the results depend on the processing

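No comparison and none of the named genes that were called reversed direction under the alternatives run, whereas over all genes called, 7 that rose and 16 that fell changed sign with the label prefix as a term. With the label prefix as a term the Irg1-/- shift gave 674 genes higher and 1097 lower, 24 list members were called higher, 9.88% of sustained genes were called lower and 31.1% of late genes higher. Other settings gave 1790 to 2262 genes higher and 1990 to 2408 lower, and leaving out 1 library gave 1549 to 1742 higher and 1665 to 1911 lower. Whether more genes rose or fell depended on the setting. The main fit gave 2159 higher and 2003 lower, and only the compared groups gave 2262 and 2143. DESeq2 size factors gave 1905 and 2209, and counts thinned to the smallest library 1790 and 2090. The genotype difference was called in 13 genes by DESeq2's Wald test, 78 without a filter, and 0 to 1 without 1 library. Of those 78, 77 were among the tested genes. Against Unstim., leaving out 1 library gave 492 to 661 genes lower, the fewest without LPS 24h culture 1. Among genes that fell with a log2 fold change of at least 2, 16.74% of promoters held kappaB, 9.22% AP-1 and 10.21% TATA letters.

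Of 214 tested named genes 141 were called, 103 also with the prefix, and 26 lost the call without 1 library. With the replicate block the shift gave 2226 genes higher and 2031 lower. Deviations of log2 CPM from the group mean correlated at -0.0546, 0.0334 and -0.00365 between same-numbered LPS 24h and LPS 3h libraries. These values give no sign that the numbers pair the cultures, and with 3 libraries per group they cannot exclude it. What the prefix stands for was not tested. Counting intervals do not cover PCR duplication.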
